A study of Mus musculus with 24 samples.

Results

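Adrenal glands of wild-type XX mice were compared with those of wild-type XY mice that kept their testes, on 8 of the 24 arrays of the series (4 WT females and 4 WT intact males), and for autosomal genes only. Of 14411 genes bright enough to test, 13900 lie on the autosomes and were compared; the 471 X-linked and 5 Y-linked genes served only to check the labels. All mice were 7 months old, on a mixed sv129-C57Bl/6 background, and each array read 500 ng of total RNA from whole adrenals, cortex and medulla together. The values are log2 signals normalized with RMA, so that 1 unit is a 2-fold difference.

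The WT females were Prkar1a fl/+;cre/+;mTmG/mTmG: they carried 1 floxed allele of Prkar1a, the gene of a regulatory subunit of protein kinase A (PKA), and a Cre recombinase placed in the locus of the aldosterone synthase gene Cyp11b2, which drives it in the zona glomerulosa. The WT intact males were Prkar1a fl/fl;mTmG/mTmG without Cre. In the WT groups, sex therefore cannot be told apart from the Cre allele and from the number of intact Prkar1a alleles after Cre has acted. The KO females and KO intact males (4 arrays each) share 1 genotype, fl/fl;cre/+;mTmG/mTmG, and none of their arrays enters the WT comparison. They give the sex difference without that difference in alleles, in glands without Prkar1a in the cells with Cre. A further 4 WT males had been gonadectomised (GDX) during the last 2 months; they were of mixed genotype, array 1 without Cre or floxed allele, arrays 2 and 3 with Cre alone (array 2 being mTmG/+) and array 4 with Cre and 1 floxed allele. Any comparison of GDX with intact males would share the intact arrays with the sex comparison, so GDX levels are given side by side without a test. The hour of dissection is not given in the labels.

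The mouse adrenal cortex makes aldosterone in its outer zona glomerulosa and corticosterone in the zona fasciculata beneath it. Next to the medulla lies the X-zone, a remnant of the fetal cortex that regresses in males at puberty under androgens and persists in females until the first pregnancy. Androgens and oestrogens both act on cortical cells, and the mouse gland, unlike the human one, makes hardly any androgen of its own.

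The labels of sex held on all 8 arrays. Xist, the RNA that silences an X chromosome, stood at 10.31 ± 0.13 in WT females and 3.34 ± 0.18 in WT intact males (SD, n = 4 each). The Y-linked genes Uty and Eif2s3y averaged 3.34 and 4.30 in the females and 8.40 and 8.89 in the males. Array medians lay between 5.20 and 5.28, and Pearson's r across genes was 0.991 to 0.995 within the females and 0.990 to 0.994 within the males. WT male 1 stood apart from the other males: among the genes that passed the test below, it was the male array nearest to the females in 551 of 1063, or 51.8%, against 14.1 to 19.2% for each other male. Over the 15 largest rises in females it averaged 6.23, and the other males 5.0 to 5.57. Where a named gene has this array nearest to the females, the difference without it is given for the clearest cases.

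Females and intact males differed in 1063 of 13900 autosomal genes, which is 7.65% (limma, Benjamini-Hochberg adjusted p under 0.05 over all 14411 genes; called, from here on). Of these, 509 were higher in WT females (3.66% of the genes) and 554 were lower (3.99%). At an unadjusted p under 0.05 in limma, 3023 of the 13900 passed. Most differences were small: the median size among the called genes was 0.46, against 0.10 over all autosomal genes. At least 2-fold differences were found in 77 genes that were higher and 49 that were lower, and at least 4-fold differences in 17 and 5. Without WT male 1 the counts were 640 higher and 615 lower, and 943 of the 1063 genes stayed called. The 4 female arrays lay all above or all below the 4 male arrays in 2087 genes, which is 15% of those tested, 922 of them above (6.63%) and 1165 below (8.38%). The share of called genes per chromosome ran between 5.1% on chromosome 17 and 9.7% on chromosome 4.

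**Figure D1:**
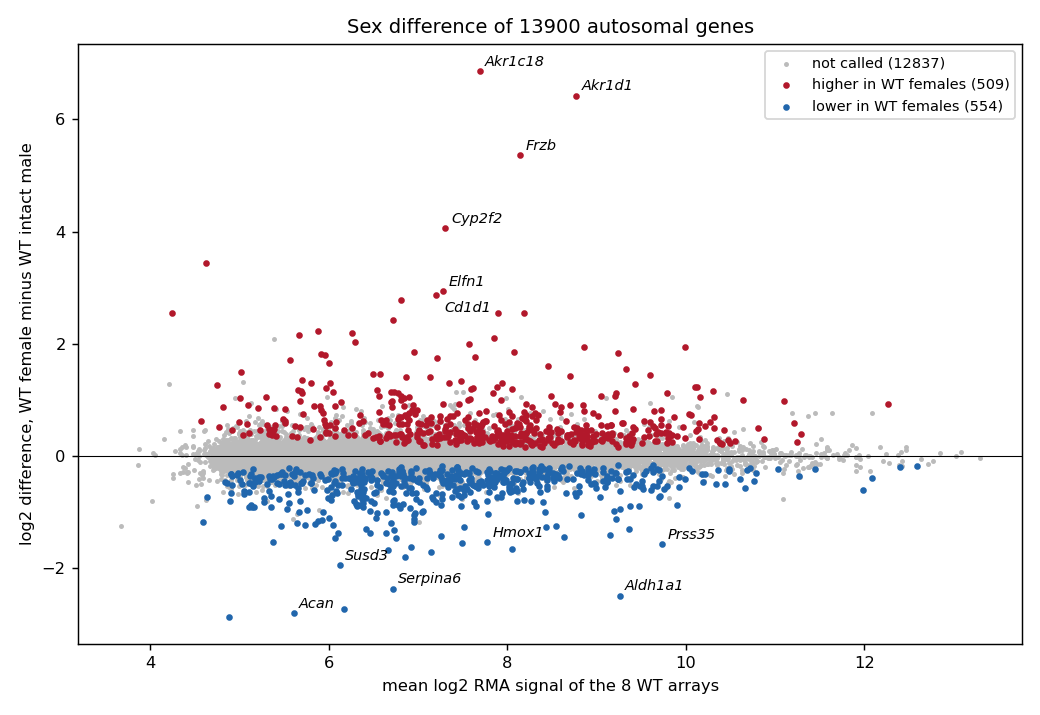
Log2 difference (WT female minus WT intact male, vertical axis) of each of the 13900 autosomal genes against its mean log2 signal over the 8 WT arrays (horizontal axis). Red points are the 509 genes called higher in WT females, blue points the 554 called lower, and grey points the rest; Akr1c18, Akr1d1, Frzb and Cyp2f2 lie at the top, and Acan, Aldh1a1 and Serpina6 near the bottom.

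The 4 largest rises without overlap between the groups were in Akr1c18, Akr1d1, Frzb and Cyp2f2. Akr1c18, which inactivates progesterone and marks the X-zone, had log2 signals of 10.91, 11.47, 9.91 and 12.18 in WT females, against 4.51, 4.26, 4.10 and 4.19 in WT intact males. The log2 difference was 6.86 ± 0.73 (SE; limma adjusted p = 3.35e-06), and as all 4 males lay under 5, a level too dim to read, its size is uncertain. The 4 WT GDX males had 12.35, 12.43, 12.04 and 12.66, all above the intact males. Akr1d1, a reductase that inactivates steroids with a keto group in the A ring, lay between 11.91 and 12.08 on the 4 WT female arrays and stood at 8.38, 5.08, 4.51 and 4.27 in WT intact males. WT male 1 was by far the highest of the males and still lay below every female. The log2 difference was 6.42 ± 0.69 (adjusted p = 3.38e-06), and 7.36 without WT male 1 (adjusted p = 1.59e-08). WT GDX males stood at 11.36, 11.65, 11.34 and 11.52 for Akr1d1. It was the 1 called member of 9 tested steroid reductases and inactivating enzymes, against 7.65% of all autosomal genes. The median difference of the 9 was 0.13.

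Frzb, a secreted antagonist of WNT signals, was at 10.70, 10.95, 11.10 and 10.55 in WT females and at 6.02, 5.57, 5.16 and 5.12 in WT intact males. The groups lay far apart, and the rise of 5.36 ± 0.31 on the log2 scale had the lowest adjusted p among the genes named here (1.26e-10). In WT GDX males Frzb lay between both groups, at 9.29, 8.16, 8.83 and 8.99. Cyp2f2, a cytochrome P450 known for oxidising inhaled toxins in mouse lung, had 9.29, 10.29, 8.67 and 9.11 in WT females against 4.89, 5.30, 6.03 and 4.90 in WT intact males. Its rise was 4.06 ± 0.56 (adjusted p = 6.68e-05); a second, dimmer probe set of Cyp2f2 differed by 0.80, so that the probe sets disagree in size. WT GDX males were scattered from 6.77 to 9.94 for Cyp2f2.

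**Figure D2:**
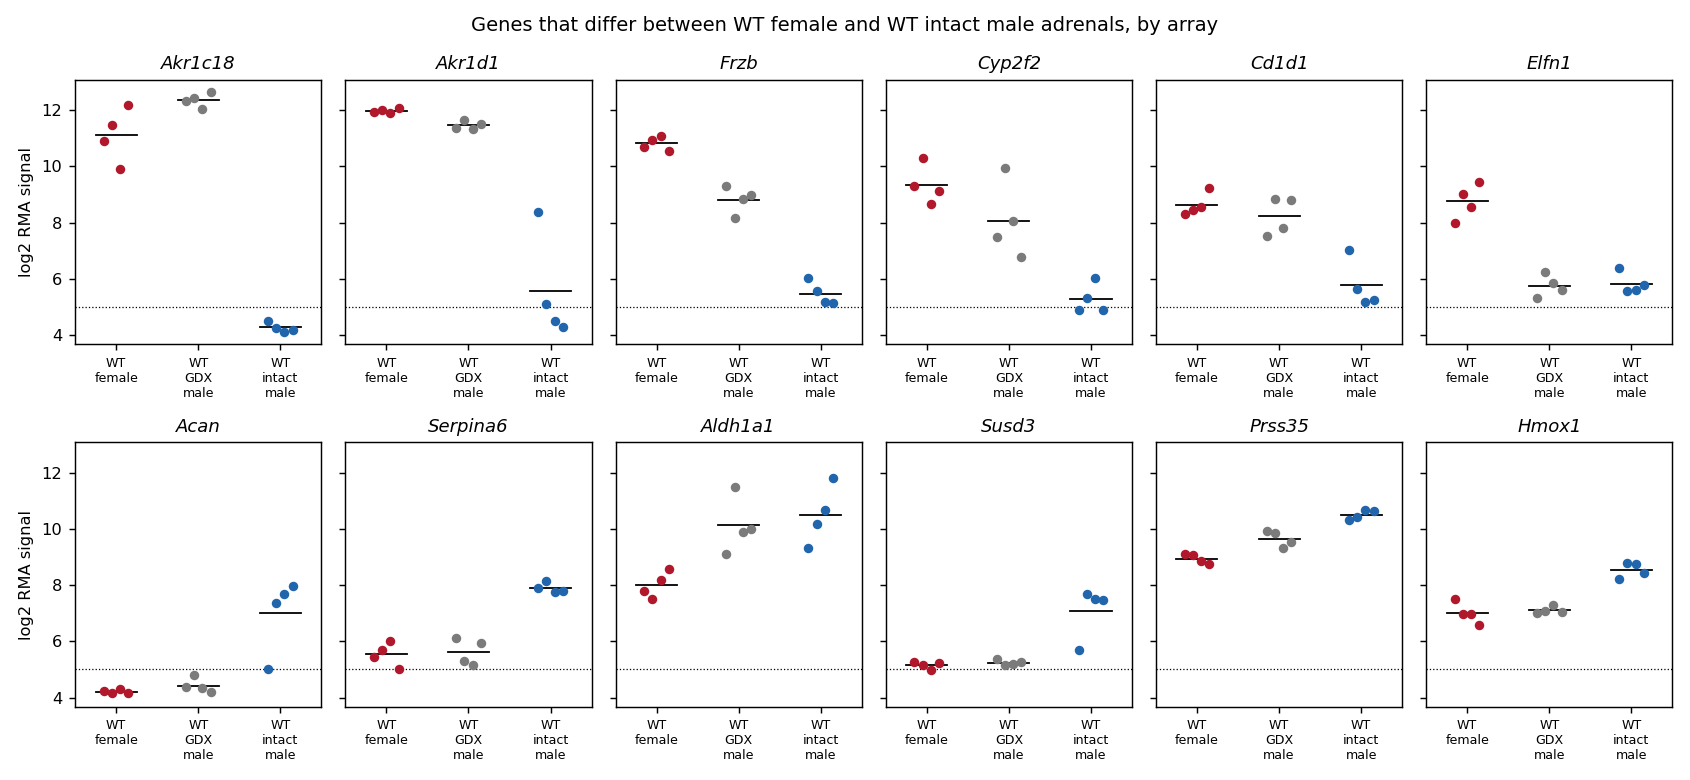
Log2 RMA signal of 6 genes called higher in WT females (upper row) and 6 called lower (lower row), 1 point per array, in WT females (red), WT GDX males (grey) and WT intact males (blue); bars are group means and the dotted line is the level of 5 used to filter dim genes. Female and intact male points do not overlap in any panel, and WT male 1 is the highest male for Akr1d1 (8.38) and the lowest for Acan (5.01) and Susd3 (5.71).

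The next rises were smaller. Elfn1, a synaptic membrane protein with leucine-rich repeats, averaged 8.75 ± 0.61 in WT females and 5.82 ± 0.38 in WT intact males (SD, n = 4 each), a difference of 2.93 ± 0.29 (SE). In WT GDX males it averaged 5.75, at the level of the intact males. Cd1d1, which presents lipids to natural killer T cells, averaged 8.63 ± 0.41 in WT females and 5.77 ± 0.87 in WT intact males (adjusted p = 4.00e-05), a difference of 2.86, or 3.29 without WT male 1. Oxtr, the oxytocin receptor, had 8.64, 9.02, 8.69 and 9.26 in WT females and 8.07, 6.91, 6.05 and 6.13 in WT intact males. WT male 1 was again the male nearest to the females, and the difference was 2.11 ± 0.42, or 2.53 without that array.

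Serpinb1a, an inhibitor of neutrophil proteases, showed the same array most plainly: WT females had 9.30, 9.45, 9.57 and 9.51, and WT intact males 9.18, 6.74, 6.05 and 5.68. All females were above all males, but WT male 1 lay just under the lowest of them. The rise of 2.54 ± 0.54 (adjusted p = 0.00448) became 3.30 without WT male 1. Mme, the peptidase neprilysin, rose by 2.00 ± 0.45, and here WT males 2 and 3, at 7.89 and 7.17, were the ones nearest to the females. The rises of Prr16, a regulator of cell size (2.77), Gabrg3, a subunit of the GABA-A receptor (2.55), Ajap1, a protein of adherens junctions (2.18), and Vnn3, of the vanin pantetheinase family (2.04), were all without overlap. WT male 1 was the highest male for Ajap1 and Vnn3, which differed by 2.55 and 2.31 without it. Neb, the giant filament protein nebulin, rose by 2.22 ± 0.18 and Obp2a, a lipocalin, by 2.54 ± 0.76, both against males that were under 5 on every array. The call of Obp2a was the least firm (adjusted p = 0.0432): it was lost when any array other than WT female 1 was left out. Hamp, the iron hormone hepcidin, and A2m, a protease inhibitor, fell outside the naming rule and were picked after their values were seen. Hamp had 3.12, 6.60, 7.11 and 8.53 in WT females and 2.97, 2.48, 3.56 and 2.59 in WT intact males (adjusted p = 0.01), with WT female 1 among the males. A2m had 6.28, 7.49, 7.88 and 10.10 in WT females and 5.39, 5.50, 5.55 and 5.59 in WT intact males.

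Among the genes lower in females were a steroid carrier, a matrix proteoglycan and 2 miRNA genes. Serpina6, the corticosteroid-binding globulin that carries corticosterone in blood, had 5.44, 5.70, 6.01 and 5.0 in WT females, against 7.89, 8.16, 7.77 and 7.78 in WT intact males. The difference of -2.36 ± 0.24 (adjusted p = 1.22e-06) was far outside the spread of both groups. WT GDX males averaged 5.63 for Serpina6. Acan, the cartilage proteoglycan aggrecan, was under 5 in all WT females (4.24, 4.15, 4.29 and 4.15) and reached 5.01, 7.36, 7.67 and 7.98 in WT intact males. WT male 1 lay near the females; the difference was -2.80 ± 0.43, and -3.46 without that array. WT GDX males averaged 4.42 for Acan.

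Aldh1a1, which makes retinoic acid from retinal, had 7.78, 7.52, 8.19 and 8.57 in WT females and 9.34, 10.16, 10.69 and 11.81 in WT intact males. Both groups spread widely without meeting, and the difference was -2.49 ± 0.53 (adjusted p = 0.00442). Susd3, a sushi-domain membrane protein, averaged 5.15 ± 0.13 in WT females and 7.10 ± 0.93 in WT intact males, where WT male 1 was the lowest at 5.71 (difference -1.94, and -2.40 without it). Hmox1, the haem oxygenase induced by oxidative stress and haem, had 7.51, 6.99, 6.96 and 6.58 in WT females, against 8.21, 8.78, 8.76 and 8.44 in WT intact males (-1.54 ± 0.16, adjusted p = 2.3e-06). Prss35, a serine protease-like protein, differed by -1.57 ± 0.13 and Bcl2l11, the pro-apoptotic protein BIM, by -1.54 ± 0.17. Gask1b, a Golgi kinase homologue, had a difference of -1.71, Kcnk1, a potassium channel subunit, one of -1.66 and Olfr1271, an olfactory receptor gene, one of -1.61.

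For 3 of the 15 largest falls without overlap in WT females, the KO glands did not show a called fall. St8sia5, a sialyltransferase of ganglioside synthesis, averaged 4.81 ± 0.38 in WT females and 7.52 ± 0.40 in WT intact males (-2.72 ± 0.37), while in the KO glands the difference was 0.97. Its second, dimmer probe set differed by -0.32 in WT. Megf10, an engulfment receptor, differed by -1.80 ± 0.37 in WT and by 0.86 in KO glands. Slit1, a secreted guidance cue, differed by -1.68 ± 0.45 in WT (adjusted p = 0.023, lost without WT female 2, WT female 4 or WT male 3) and by -0.63 in KO glands. The difference between the WT and KO sex effects was itself called for St8sia5 (-3.69 ± 0.52, adjusted p = 0.000225) and Megf10 (-2.66 ± 0.52, adjusted p = 0.00238), but not for Slit1.

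The promoters of 3 genes are shown because they carry or lack the letters AAGGTCA, bound by the steroidogenic factor NR5A1, around the start of a gene at the top of the comparison. Each runs from 250 bases before the start to 50 after it, from RefSeq on the build GRCm38.p6, with any match on the printed strand in capitals. Cyp2f2 lies at chr7:27119705-27120004 on the plus strand, Susd3 at chr13:49248245-49248544 on the minus strand, and Akr1c18, which holds no match in this window on either strand, at chr13:4150597-4150896 on the minus strand.
Cyp2f2: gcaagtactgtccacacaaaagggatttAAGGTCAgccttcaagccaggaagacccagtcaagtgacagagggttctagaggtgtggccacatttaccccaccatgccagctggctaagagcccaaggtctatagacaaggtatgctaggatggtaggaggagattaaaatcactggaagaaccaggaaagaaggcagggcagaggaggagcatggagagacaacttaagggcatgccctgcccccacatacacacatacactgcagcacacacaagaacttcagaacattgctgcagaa
Susd3: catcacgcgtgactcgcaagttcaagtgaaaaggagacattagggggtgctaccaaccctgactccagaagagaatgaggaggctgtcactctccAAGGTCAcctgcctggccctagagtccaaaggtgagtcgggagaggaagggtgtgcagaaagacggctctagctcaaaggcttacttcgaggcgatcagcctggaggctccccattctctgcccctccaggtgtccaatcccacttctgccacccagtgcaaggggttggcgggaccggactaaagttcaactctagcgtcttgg
Akr1c18: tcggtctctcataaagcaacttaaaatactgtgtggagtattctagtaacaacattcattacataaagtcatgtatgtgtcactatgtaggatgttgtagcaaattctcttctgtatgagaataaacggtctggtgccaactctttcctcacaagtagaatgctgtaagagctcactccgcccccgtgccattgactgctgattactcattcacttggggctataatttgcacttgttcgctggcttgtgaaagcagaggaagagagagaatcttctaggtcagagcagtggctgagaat
Among promoter windows of the same length, searched on both strands, the 7 letters were found in 3.88% of 516 windows of genes called higher in WT females, in 4.31% of 557 windows of genes called lower, and in 3.27% of all 13623 windows of tested autosomal genes. The 30 largest changes had 23 windows, for 19 of the genes, and 3 windows held a match. These were the windows of Cyp2f2 and Susd3 and that of Elfn1, with its match on the other strand. A match is a description of the sequence and not a measured site.

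Of 12 genes of cholesterol delivery and corticosterone synthesis, 1 was called, a share near that of all autosomal genes (7.65%), with a median difference of 0.07 (all genes -0.01). The members' differences ran from -0.41 to 0.62. At an unadjusted p under 0.05 in limma 6 of the 12 passed, against 3023 of all 13900 autosomal genes. All WT females lay below all WT intact males in 3 of the 12, against 8.38% of all autosomal genes. Star, which brings cholesterol into mitochondria, differed by 0.01, Cyp21a1 by 0.07, and Cyp11b1, the enzyme of the last step to corticosterone, by 0.06. Cyp11a1, which cuts the side chain of cholesterol, averaged 12.64 ± 0.04 in WT females and 12.79 ± 0.04 in WT intact males, a difference of -0.15 with an adjusted p of 0.0524. The called gene was Fdx1, the ferredoxin that hands electrons to mitochondrial P450 enzymes, at -0.41 ± 0.11 (adjusted p = 0.0279). Its call was lost without WT female 1, 3 or 4 or WT male 1 or 2.

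Of 11 genes for the ACTH receptor and steroidogenic regulators, 4 were called and all were higher in WT females. Of all autosomal genes 3.66% were called higher. Cebpb, a transcription factor induced by cAMP, had 8.35, 8.46, 8.39 and 8.55 in WT females against 7.94, 7.35, 7.06 and 7.38 in WT intact males (1.00 ± 0.17, adjusted p = 0.00077, and 1.17 without WT male 1). Cited2, a co-activator needed for the adrenal anlage, rose by 0.49 ± 0.11 without overlap. Nr5a1, the gene of the master regulator of steroid enzymes, rose by 0.49 ± 0.13 with overlapping groups (adjusted p = 0.0175, lost without WT female 4, WT male 3 or WT male 4). Gata4, a gonadal and fetal adrenal factor that also stands in the list of gonadal-like genes, was called at 0.50, but its groups overlapped and the call was lost without any of 5 arrays (WT females 1, 3 and 4 and WT males 3 and 4). Mc2r, the ACTH receptor, differed by -0.03.

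**Figure D3:**
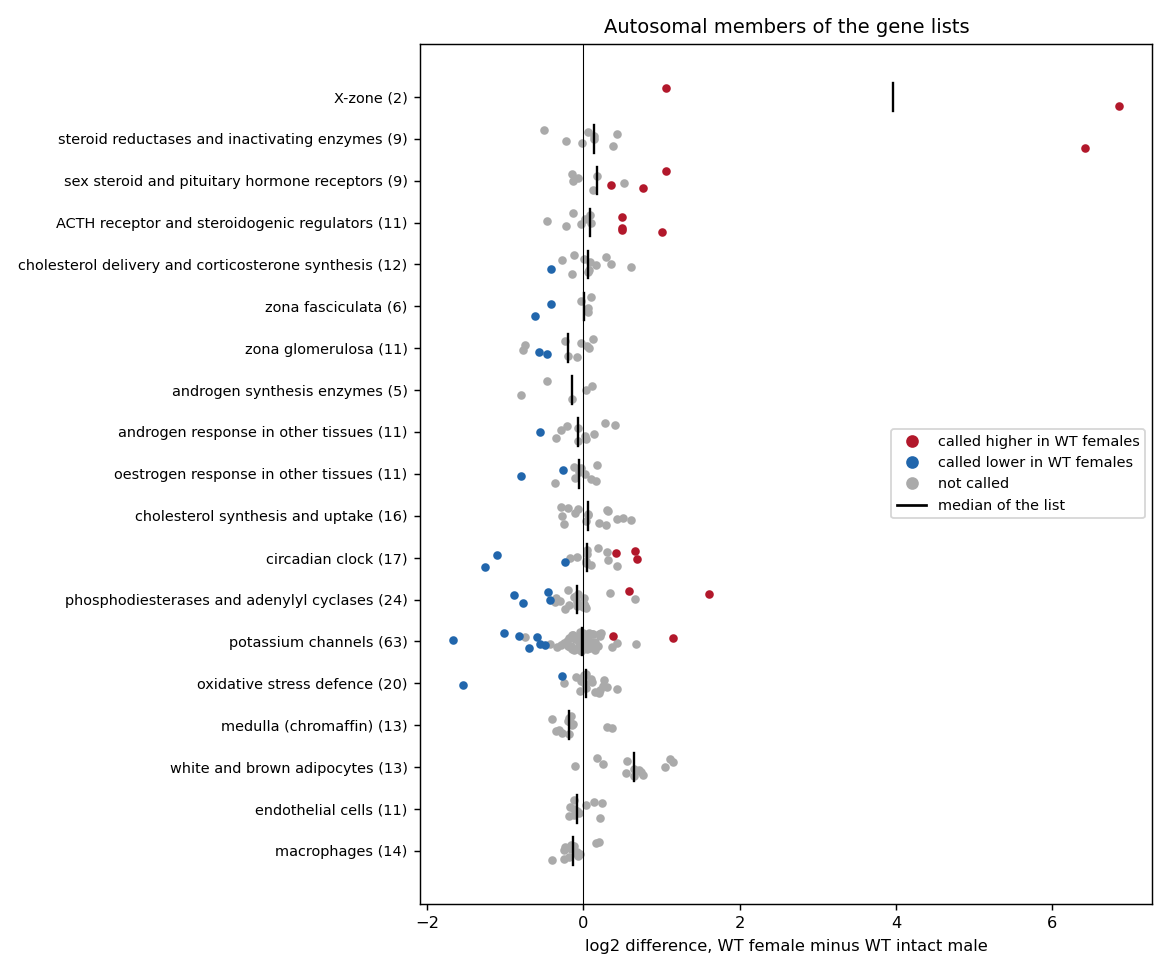
Log2 difference (WT female minus WT intact male) of the autosomal tested members of 19 gene lists, 1 point per gene, with the number of members in brackets. Red points were called higher in WT females, blue ones lower and grey ones were not called; the black bar is the median of each list, near 0 for all but the X-zone list (3.96, 2 genes) and the adipocyte list (0.65, no member called).

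Of the X-zone list 2 of 3 members were bright enough to test, and both rose in females: Akr1c18 and Thrb, the thyroid hormone receptor beta that X-zone cells carry. Thrb had 8.90, 9.04, 9.01 and 9.16 in WT females, against 8.64, 7.86, 7.64 and 7.70 in WT intact males (1.06 ± 0.16, adjusted p = 0.00022, and 1.29 without WT male 1); the groups did not overlap, and WT male 1 lay nearest to the females. In a whole gland, more cells of a type and more RNA per cell cannot be told apart. The third member, Pik3c2g, did not pass the filter on dim genes.

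Among 11 zona glomerulosa genes 2 were called, against 7.65% of all autosomal genes. Both were lower in WT females: the calcium channel subunits Cacna1h (-0.56 ± 0.16) and Cacna1d (-0.46 ± 0.14). Both calls were lost when any array other than WT male 1 was left out. Cyp11b2 had 9.71, 10.97, 11.11 and 11.04 in WT females and 11.79, 11.01, 11.55 and 11.54 in WT intact males. The groups overlapped by WT male 2 and the difference of -0.77 ± 0.36 was not called (adjusted p = 0.215); as Cre sits in this locus in the females only, allele and sex cannot be told apart here. Of 6 zona fasciculata genes 2 were called lower, against 3.99% of all autosomal genes. They were Fdx1 and Abcb1b, a drug and steroid efflux pump. Abcb1b had 11.80, 11.54, 11.72 and 11.68 in WT females against 12.30, 12.33, 12.34 and 12.22 in WT intact males (-0.61 ± 0.09, adjusted p = 0.000114).

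Both oestrogen receptor genes were called a little higher in WT females, with calls that hung on single arrays. Esr1, the oestrogen receptor alpha, averaged 8.07 ± 0.40 in WT females and 7.31 ± 0.23 in WT intact males, a rise of 0.76 ± 0.22 (adjusted p = 0.0384). Esr2, the oestrogen receptor beta, rose by 0.36 ± 0.11 (adjusted p = 0.0396). Each call was lost when any of 6 arrays was left out (for Esr1 WT females 3 and 4 and every male, for Esr2 WT females 1, 3 and 4 and WT males 2, 3 and 4). The androgen receptor gene is X-linked and was outside the comparison. Of the 9 hormone receptor genes 3 were called in all, Thrb being the other, against 7.65% of all autosomal genes. In KO glands Thrb alone of the 9 was called higher in females and 3 were called lower. There, 17.8% of all autosomal genes were called higher and 22.9% lower.

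Lists of genes known to respond to sex steroids in other tissues had medians near 0. Called counts are to be read against 7.65% of all autosomal genes. Counts at an unadjusted p under 0.05 are to be read against 3023 of 13900. Of 11 androgen response genes 1 was called, Ndrg1, a stress- and androgen-induced gene, at -0.55 ± 0.14 (lost without WT female 2, WT male 2 or WT male 4), and the list's median was -0.06. Of 11 oestrogen response genes 2 were called, both lower in WT females, with a list median of -0.05. Greb1, a co-factor of the oestrogen receptor in breast cancer cells, had 7.71, 7.95, 7.92 and 7.87 in WT females against 8.47, 8.18, 8.68 and 9.32 in WT intact males (-0.80 ± 0.20). This call was lost without WT male 4, the highest male. None of 9 genes that differ between the sexes in mouse liver was called (median 0.20, 1 at an unadjusted p under 0.05 in limma), and none of 5 androgen synthesis enzymes (0 at an unadjusted p under 0.05) or 5 UDP-glucuronosyl and sulfotransferases (2).

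In the families of detoxifying enzymes, too, the shares are to be read against 7.65% of all autosomal genes. Of 24 cytochrome P450 genes of families 2 to 4, 2 rose in WT females, Cyp2f2 and, weakly, Cyp2c23 (0.57 ± 0.17, adjusted p = 0.0391, lost when any of 6 arrays was left out: WT females 1 to 3 and WT males 2 to 4). Of 16 glutathione S-transferases 2 rose and 1 fell. Gstk1, the mitochondrial and peroxisomal member, had 10.89, 10.91, 10.93 and 10.79 in WT females against 9.90, 9.73, 9.60 and 9.67 in WT intact males (1.16 ± 0.16, adjusted p = 6.68e-05). Mgst1, a microsomal member, rose by 0.60 ± 0.11, and Gstt3 differed by -0.49 ± 0.11. Of 20 genes of oxidative stress defence Hmox1 and Txn2, a mitochondrial thioredoxin (-0.28, lost without WT female 1 or WT male 4), fell.

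No member was called among 16 genes of cholesterol synthesis and uptake (median 0.06), 16 of fatty acid metabolism (0.07), 69 of the mitochondrial respiratory chain (0.01), 19 of the cell cycle (0.07) and 13 of the glucocorticoid response (0.14). At an unadjusted p under 0.05 in limma, 3 members of each of these lists passed but for the cell cycle list, with 0. Of all 13900 autosomal genes 3023 passed. In the KO glands, 15 of the 16 cholesterol genes were called higher in KO females than in KO intact males (median 1.24). There, 17.8% of all autosomal genes were called higher.

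Enzymes that break down cAMP and cGMP differed in both directions. Of 24 phosphodiesterases and adenylyl cyclases, 2 rose in WT females and 4 fell, against 3.66% and 3.99% of all autosomal genes. Pde7a, which degrades cAMP, had 9.37, 9.20, 9.30 and 9.20 in WT females against 8.57, 7.55, 7.04 and 7.46 in WT intact males (1.61 ± 0.22, adjusted p = 7.14e-05, and 1.91 without WT male 1); its second, dimmer probe set differed by 0.28. Pde8b, a cAMP phosphodiesterase of the adrenal cortex, averaged 9.58 ± 0.15 in WT females and 8.99 ± 0.28 in WT intact males. Pde5a, which degrades cGMP, lay between 9.0 and 9.08 in WT females, against 9.71, 9.94, 10.05 and 9.98 in WT intact males (-0.89 ± 0.11, adjusted p = 1.75e-05). Pde10a fell as well (-0.77 ± 0.19, lost without WT male 3). Among 7 PKA subunits and inhibitors, Prkar2b was called at -0.46 (adjusted p = 0.042), with overlapping groups, and lost its call without any of 6 arrays (WT females 2 to 4 and WT males 2 to 4).

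Prkar1a had 8.43, 8.53, 8.54 and 8.52 in WT females with 1 floxed allele and Cre, against 8.89, 8.72, 8.75 and 8.91 in WT intact males without Cre. The arrays did not overlap, yet the difference of -0.31 ± 0.23 was not called (adjusted p = 0.456); fitted on the 8 arrays alone, without the KO groups, it was (adjusted p = 0.0253). Around the loci that carry the alleles, 5 of 40 tested genes next to Cyp11b2 were called (12.5%) and 4 of 40 next to Prkar1a (10%), against 7.65% of all autosomal genes. Near Cyp11b2 these were Lynx1 (-1.44, and -1.71 without WT male 1), Them6 (-0.66), Peg13 (-0.33), Top1mt (0.64) and Chrac1 (0.22), and near Prkar1a they were Abca5 (-0.72), Arsg (-0.39), Cdc42ep4 (0.42) and Cep112it (0.37). The calls of Chrac1 (WT females 1 to 4 and WT males 2 and 3), Peg13 (WT females 1 to 3 and WT males 3 and 4), Cep112it (WT females 2 and 3 and all WT males) and Arsg (WT females 2 and 3 and WT males 3 and 4) were lost when any of the arrays in brackets was left out. The other 5 calls held without any 1 array. In KO glands, where both sexes carry the same alleles, Lynx1, a toxin-like modulator of nicotinic receptors, differed by -1.19, Top1mt by 1.57, Cdc42ep4 by 0.53 and Peg13 by -0.66, all called. Cep112it went the other way, at -0.45 in KO glands against 0.37 in WT. That difference between WT and KO was called by limma (adjusted p = 0.00199), but not with the mean of the medulla markers as a covariate (0.052). KO values of Them6, Chrac1, Abca5 and Arsg are not given here.

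Of 17 circadian clock genes 6 were called, 3 lower and 3 higher in WT females, against 7.65% of all autosomal genes. Lower were the clock's activators Arntl (BMAL1), Npas2 and Clock, and higher were Dbp, Per3 and Nr1d2, which such activators are known to switch on. Other known targets were not called, among them Cry1 (0.04), Ciart (0.03), Bhlhe40 (0.44), Bhlhe41 (0.10) and Hlf (-0.17). Arntl had 7.75, 7.78, 7.89 and 7.81 in WT females against 8.70, 9.12, 9.47 and 8.97 in WT intact males (-1.26 ± 0.16, adjusted p = 2.18e-05), without overlap. Npas2 had 6.01, 6.12, 5.99 and 5.78 in WT females against 6.81, 7.21, 7.45 and 6.85 in WT intact males (-1.10 ± 0.18, adjusted p = 0.000306). Dbp, an output gene of the clock, rose by 0.69 ± 0.16 (adjusted p = 0.00774), and Per3, of the repressor family, by 0.66 ± 0.15 (adjusted p = 0.00572).

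Clock differed by -0.23 and lost its call without WT female 1 or 4 or WT male 2 or 3. Nr1d2 differed by 0.41 and lost it when any array but WT male 1 or 4 was left out. The KO glands showed no such difference: Arntl differed by -0.07 (adjusted p = 0.75), Npas2 by -0.02 and Dbp by -0.07. The difference between the WT and KO sex effects was called for Arntl (-1.18 ± 0.22, adjusted p = 0.00159), Npas2 (-1.08, adjusted p = 0.00607) and Dbp (0.75, adjusted p = 0.0262). For Arntl the 4 WT females lay close together and below every array of the other intact groups. The hour at which each group was dissected is not in the labels, and its part in the result was not tested.

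**Figure D4:**
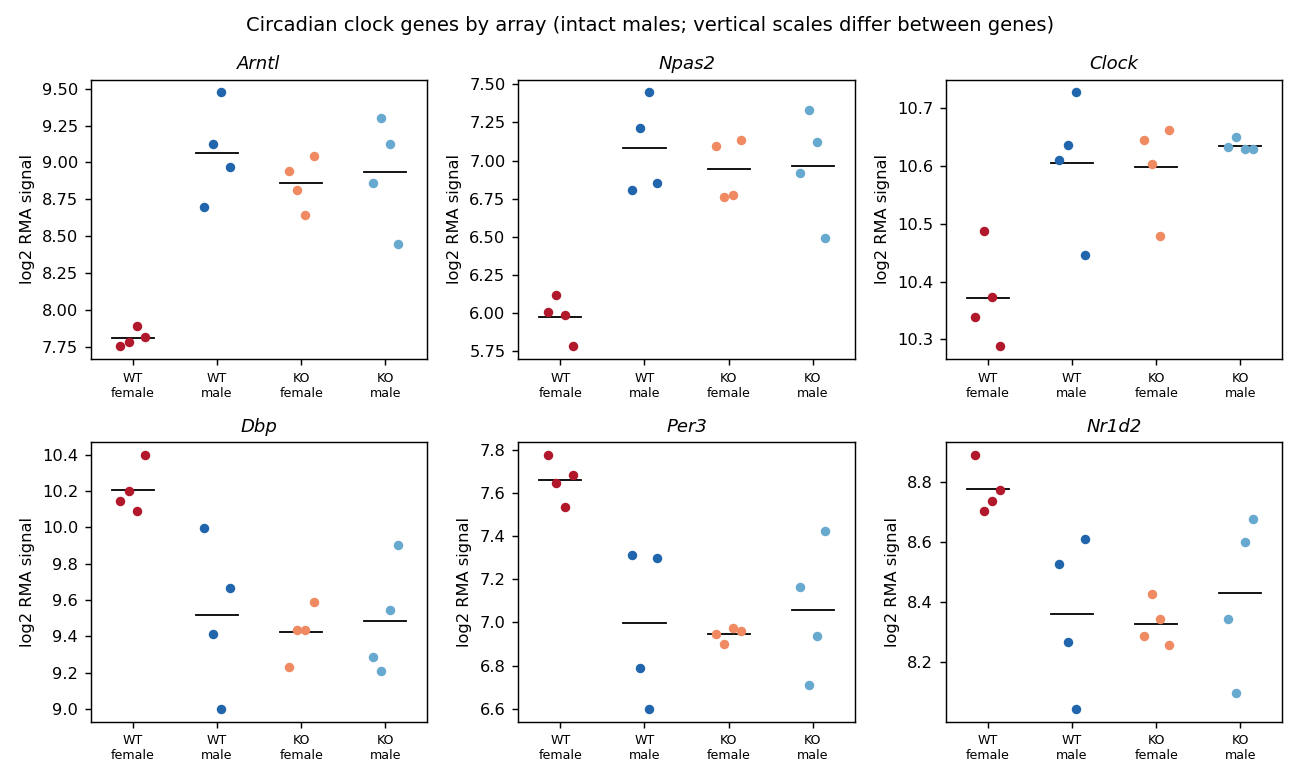
Log2 RMA signal of the 6 called clock genes on each array of WT females, WT intact males, KO females and KO intact males; bars are group means and vertical scales differ between genes. For Arntl and Npas2 the WT female points (7.75 to 7.89 and 5.78 to 6.12) lie below every point of the other 3 groups.

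The genes of miRNAs, short RNAs that repress mRNAs through a seed at their 5′ end, stood out among the genes lower in females; the set was drawn up after values had been seen and carries no test. Of 181 tested miRNA genes, 34 (18.8%) were called lower in WT females and none higher. Of all autosomal genes 3.99% were called lower and 3.66% higher. At an unadjusted p under 0.05 in limma the counts were 63 lower and 5 higher, against 3023 of 13900 autosomal genes in either direction. Of 4322 other genes in the middle level range of the miRNA genes (log2 5.44 to 6.85), 5.58% were called, 114 higher and 127 lower. The probe sets are named for the gene, and whether they read the precursor, the host transcript or the mature miRNA was not stated in the labels. The mature sequences below, from RefSeq on GRCm38.p6, are shown for the genes with the largest falls. Also shown are seeds that several of the 34 shared in the sequences at hand. Capitals mark the seed, bases 2 to 8.
let-7c-5p: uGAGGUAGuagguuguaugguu
let-7c-2-3p: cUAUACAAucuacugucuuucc
miR-300-5p: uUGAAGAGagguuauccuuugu
miR-300-3p: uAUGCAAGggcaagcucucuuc
miR-376b-5p: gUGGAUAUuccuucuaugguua
miR-376b-3p: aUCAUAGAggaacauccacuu
miR-15a-5p: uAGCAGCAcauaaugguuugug
miR-16-5p: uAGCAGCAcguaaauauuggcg
miR-1197-5p: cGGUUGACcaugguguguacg
miR-758-5p: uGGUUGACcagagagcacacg
Mirlet7c-2 was the gene with the largest fall of all, at 3.42, 3.04, 4.46 and 2.88 in WT females against 6.20, 6.26, 6.15 and 6.63 in WT intact males (-2.86 ± 0.34, adjusted p = 1.3e-05). All 4 females were under 5, so the size is uncertain. Its mature product let-7c-5p lies at chr15:85706616-85706637 on the plus strand. The same mature sequence is encoded by Mirlet7c-1 at chr16:77599672-77599693, which differed by -0.91 ± 0.22 (lost without WT male 3). Mir23b had 6.44, 6.05, 6.61 and 6.51 in WT females against 7.65, 7.44, 7.61 and 7.37 in WT intact males (-1.11 ± 0.15, adjusted p = 5.11e-05). Of the 54 seeds of the 30 called miRNA genes with a mature sequence, 3 were shared by more than 1 gene: that of let-7c, that of miR-15a and miR-16, and that of miR-1197 and miR-758.

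The densest run of such genes was on chromosome 12, in the imprinted stretch from Dlk1 to Dio3, whose miRNAs are made from the maternal copy. There, 18 of 33 tested miRNA genes were called lower (54.5%), against 3.99% of all autosomal genes. All 33 had a difference below 0, against 7299 of 13900 autosomal genes, and their median was -0.52. Elsewhere in the autosomes 16 of 148 miRNA genes were called lower (10.8%). Mir300 had 5.90, 6.35, 6.40 and 5.42 in WT females against 7.23, 7.62, 7.64 and 7.45 in WT intact males (-1.47 ± 0.27, adjusted p = 0.00118). Mir376b had 5.37, 5.35, 5.70 and 4.97 in WT females against 6.56, 6.84, 7.04 and 6.76 in WT intact males (-1.45 ± 0.26, adjusted p = 0.00115). In neither were the groups near each other. WT GDX males had 7.47, 6.18, 6.61 and 6.60 for Mir300 and 6.61, 5.51, 5.63 and 5.82 for Mir376b, with GDX array 1 the highest in both.

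None of the longer transcripts looked up in the stretch was called: Meg3 differed by -0.20, Rian by -0.36 (limma adjusted p = 0.0523), Dlk1, the paternally expressed Notch-like ligand, by -0.24, and Dio3os by -0.44. For Rian all WT females (10.01 to 10.20) lay below all WT intact males (10.37 to 10.59). Other long transcripts of the stretch were not looked up. The miRNAs of the stretch are known to be cut from long shared transcripts, so that their genes are not independent of each other. In the KO glands 32 of the 33 were called lower in KO females, against 22.9% of all autosomal genes. With the mean of the medulla markers as a covariate 11 were called lower in KO females, against 456 of all 13900 autosomal genes. The WT count with that covariate was 18. Over all alternatives tried at the same threshold the WT count ran from 13 to 24.

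**Figure D5:**
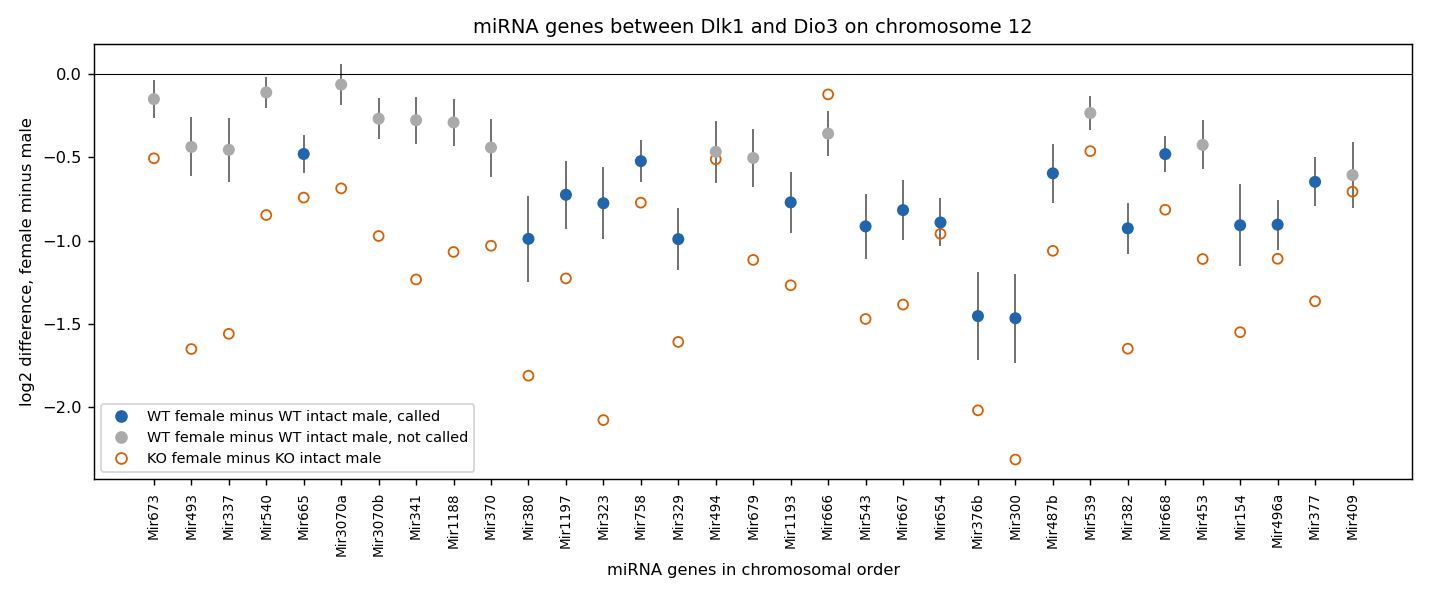
Log2 difference between females and intact males of the 33 tested miRNA genes between Dlk1 and Dio3, in their order along chromosome 12. Filled points are WT (blue called, grey not called) with bars of 1 SE, and open points are KO; all WT points lie below 0, lowest at Mir300 (-1.47) and Mir376b (-1.45).

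Ion channels and sialyltransferases held further differences. Of 63 potassium channel genes 2 rose in WT females and 7 fell, against 3.66% and 3.99% of all autosomal genes. Kcnk1 had 7.26, 7.38, 6.98 and 7.27 in WT females against 8.44, 8.75, 8.83 and 9.51 in WT intact males, and Kcnk5, another leak channel subunit, had 7.62, 7.31, 7.12 and 7.16 in WT females against 6.08, 6.06, 5.97 and 6.53 in WT intact males (1.14 ± 0.15, adjusted p = 5.11e-05). Kcnt1, a channel opened by sodium, differed by -1.01 ± 0.21. Kcnma1, the large-conductance channel opened by calcium, averaged 9.46 ± 0.10 in WT females and 10.05 ± 0.09 in WT intact males.

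Of 21 ganglioside and sialyltransferase genes 3 were called, against 7.65% of all autosomal genes. Besides St8sia5, St6galnac2 fell (-1.27 ± 0.19) and St3gal1 rose, with 7.98, 8.22, 7.68 and 8.35 in WT females against 6.97, 7.19, 7.14 and 6.94 in WT intact males (1.00 ± 0.13, adjusted p = 2.94e-05). In the complement list Masp1, a protease of the lectin pathway, rose by 1.77 ± 0.35 and C7, of the membrane attack complex, differed by -0.94 ± 0.27 (lost without WT female 1 or 3 or WT male 2, 3 or 4). WT male 1 was the male nearest to the females for Masp1, at 7.72, and without it the rise was 2.09.

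In several signalling and tissue lists the called share was near or under the 7.65% of all autosomal genes. Called were 1 of 17 WNT genes (Rspo1, a capsule WNT enhancer, -0.31), 1 of 14 hedgehog and capsule genes (Shh, -0.49), 2 of 36 collagens (Col28a1 -0.51 and Col16a1 -0.33), 3 of 52 ribosomal protein genes, 1 of 18 CREB and immediate early targets (Fosl2, 0.59) and none of the 9 interferon or 7 MHC class II genes (0 and 1 at an unadjusted p under 0.05 in limma). The calls of Rspo1, Shh, Col16a1 and Fosl2 were each lost without 2 or more of the 8 arrays. Of the ribosomal protein genes, Rps12 (-0.26) kept its call without any 1 array, Rps24 (-0.30) lost it without WT female 4, and Rps14 (-0.28) lost it without any of the 8. All WT females lay below all WT intact males in 14 of the 52, against 8.38% of all genes. Several ribosomal protein genes have near-identical copies in the genome that may share probes.

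Markers of other cell types were not called. None of the 13 chromaffin markers of the medulla passed the test (median -0.18), nor of 11 endothelial, 14 macrophage, 7 smooth muscle and pericyte, 4 Schwann cell, 3 mast cell, 2 lymphocyte and 2 kidney tubule markers or the 1 erythrocyte marker. At an unadjusted p under 0.05 in limma 2 Schwann cell, 2 adipocyte and 1 mast cell marker passed, and none of the other lists. Of all 13900 autosomal genes 3023 passed. The mean level of the medulla list was 9.40 to 9.86 in WT females and 9.55 to 9.96 in WT intact males. The 13 adipocyte markers had a median difference of 0.65 with none called; their mean level ran from 7.90 to 9.44 in WT females and from 7.37 to 9.40 in WT intact males. With the adipocyte mean as a covariate 1063 genes were called again, 910 of them the same, and 576 were then higher and 487 lower.

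The KO glands, on arrays of their own and with the same alleles in both sexes, were used to see how far the WT differences recur. Of the 509 genes called higher in WT females, 360 (70.7%) were also called higher in KO females, where 17.8% of all autosomal genes were called higher, and 20 were called lower. Of the 554 called lower, 374 (67.5%) were also called lower in KO females, against 22.9% of all genes, and 26 were called higher. Among the at least 2-fold differences, 67 of 77 rises and 39 of 49 falls were called the same way, and 1 rise and 3 falls the other way. All 15 of the largest rises and 12 of the 15 largest falls named above were called the same way. Akr1c18 differed by 4.09 in KO glands, Akr1d1 by 6.12, Frzb by 5.08, Serpina6 by -2.22 and Acan by -3.16. For Akr1c18 the KO intact males were split, at 10.90, 6.57, 6.36 and 10.96, against 12.75 to 12.86 in KO females.

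The KO comparison holds 5656 called genes, 40.7% of those tested, and its glands differ in more than sex: all 13 medulla markers were lower in KO females (median -1.07), and their part in the result was not tested beyond a covariate. With the medulla mean as a covariate, 1132 of the 13900 autosomal genes were called in KO glands, 676 higher and 456 lower in KO females. Among the 676 were 161 of the 509 WT rises, and among the 456 were 121 of the 554 WT falls. The sex difference itself was called different between WT and KO in 2195 genes (15.8%), among them 123 of the 509 WT rises and 135 of the 554 WT falls, and in 248 genes with that covariate.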

How the data were processed

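Whole adrenal RNA was measured on Affymetrix gene arrays. The log2 signals were background-corrected and normalized with RMA by the authors, per the submitters' processing notes, and deposited as a value table of 32202 probe sets; the software and its version are not named there. Of these probe sets 22943 carry 1 gene symbol, 1731 several and 7528 none. Each of 21957 genes was represented by its probe set with the highest mean, and kept if its log2 value was over 5 in at least 4 of the 24 arrays. Chromosomes came from RefSeq, assembly GRCm38.p6.

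Group means of the 6 groups were fitted over 24 arrays with limma 3.58.1 in R 4.3.3 (lmFit, eBayes, 18 residual and 3.41 prior degrees of freedom), and p-values were adjusted over 14411 genes by Benjamini-Hochberg. Values are means ± SD and log2 differences ± SE; the number of arrays limits their precision. The labels call the arrays of a group biological replicates; separate animals are not stated further.

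Named genes are the 15 largest called rises and falls without overlap of the groups' arrays (symbols of predicted genes, or of A, B, C, D or E with a number, left out), up to 3 called members per list, Prkar1a, Cyp11b2, Akr1c18 and Esr1, and called neighbours of Cyp11b2 and Prkar1a (20 tested genes on each side). There were 45 lists. The comparison, its lists and its rules were chosen with earlier results of these data known. The list of steroidogenic regulators also holds Sf1, here splicing factor 1, which was not called. The fit was first tested on simulated data with known changes. Alternatives varied the filter, the arrays, the fit, the threshold, a replicate block and marker covariates. Same-numbered arrays of WT females and WT intact males did not deviate together (correlations -0.09 to 0.03), and the numbers were not used to pair samples. The other groups were not compared in this way, and a shared batch was not tested.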

Additional observations from a re-analysis of the deposited data

Results flagged for a closer look

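Some arrays stood far from the other 3 of their group by Dixon's criterion. Of 160 groups of 4 arrays tested, 12 met it; chance does so in about 1 in 20. In WT females, array 4 stood out for Mme at 7.98 (others 8.72 to 8.84) and for Olfr1271 at 7.01 (5.70 to 5.91). Array 2 of the WT females stood out for St8sia5 at 4.24 (4.94 to 5.03) and Chrac1 at 7.23 (7.28 to 7.29). WT female 1 stood out for Cyp11b2 at 9.71 (10.97 to 11.11) and Gstt3 at 5.42 (5.30 to 5.32). In WT intact males, array 1 stood out for Susd3 at 5.71 (7.49 to 7.68), Lynx1 at 8.55 (9.57 to 9.68) and Top1mt at 6.68 (6.18 to 6.24). WT male 2 stood out for Arsg at 5.77 (6.08 to 6.15), WT male 3 for Megf10 at 6.90 (7.96 to 8.10) and WT male 4 for Cacna1h at 10.36 (10.14 to 10.16).

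The sex difference in WT minus that in KO glands was called by limma for 17 of the 80 named genes. With the mean of the medulla markers as a covariate 7 of these were called: St8sia5 (-3.69 without the covariate, adjusted p = 0.00471 with it), Megf10 (-2.66, 0.0139), Arntl (-1.18, 0.0151), Npas2 (-1.08, 0.0302), Fdx1 (-0.76, 0.0379), Abcb1b (-0.72, 0.0225) and Pde5a (-0.66, 0.00994). The other 10 were not called with it: Greb1 (1.53), Cacna1h (1.16), Kcnk1 (0.87), Cep112it (0.82), Cacna1d (0.77), Dbp (0.75), Cited2 (-0.49), Kcnk5 (-0.78), Top1mt (-0.93) and St3gal1 (-0.95). For Fdx1 the sex difference was -0.41 in WT and 0.35 in KO, and both were called.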

How the results depend on the processing

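In 20 alternatives no named gene changed direction, and 49 of 78 called named genes kept their call in every alternative that tested them, among them 28 of the 30 largest changes (not Obp2a and Slit1). The filter at log2 6 left 7 named genes untested (Cep112it, Col28a1, Cyp2c23, Esr2, Gstt3, Rps14 and Shh), and the filter on the 8 arrays left Obp2a untested. Leaving out 1 array at a time gave 716 to 1255 called genes, 333 to 640 higher, 356 to 615 lower and 117 to 145 with at least 2-fold differences. The fewest were called without WT male 3 (333 higher), and the falls were fewest without WT female 1 (365) or WT male 4 (356). Array weights gave 1871 called genes (935 higher, 936 lower), and an adjusted p of 0.01 gave 512 (260 and 252). The 8 arrays fitted alone gave 933, of which 750 were shared with the 1063. With the medulla mean as a covariate 1008 genes were called in WT, but 1132 in KO glands and 248 for the difference between WT and KO. In a fit with the replicate number as a block, 989 were called (486 higher, 503 lower). The main fit did not treat the numbers as pairs. Small differences and genes near log2 5 are the limit at 4 arrays a group. Sex and the Cre and floxed alleles cannot be told apart in the WT groups.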
